A study of Homo sapiens with 18 samples.

Results

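The 10 genes described here belong to the AP-1 transcription factor and the immediate early response and were followed through all 18 RNA-seq libraries of the series. They were the FOS family (FOS, FOSB, FOSL1 and FOSL2), the JUN family (JUN, JUNB and JUND), and EGR1, IER2 and IER3. The set was given by gene name with no threshold on measured values, although earlier results of these data were known when it was proposed, and all 10 members were found among the 61806 gene identifiers of the table. The libraries came from LoVo and DLD-1, cell lines from human colorectal cancers. Each line was profiled with an empty vector (EV), with overexpressed LIN28B, and with overexpressed LIN28B plus 5 µM alpelisib, with 3 libraries in each of the 6 groups. LIN28B binds the precursors of let-7 microRNAs and keeps them from being processed, and alpelisib inhibits the alpha isoform of PI3K. Alpelisib was thus measured on the LIN28B background alone, and EV cells had the empty vector and no drug. The sources used here do not give the vector's promoter, the use of clones or pools, the length of treatment or the vehicle. Since the labels do not state separate cultures for the replicates, p-values reflect the spread among these libraries alone, which may be technical.

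AP-1 is a dimer of basic leucine zipper proteins. JUN proteins pair with one another or with FOS proteins, whereas FOS proteins need a JUN partner, and the dimers bind short sites in promoters and enhancers. Immediate early genes are transcribed within minutes of a growth factor signal without new protein synthesis, largely through serum response factor and its ERK-regulated partners at CArG boxes and through CREB at cyclic AMP response elements, and their mRNAs are short-lived. In colorectal cancer cells the RAS-ERK and PI3K-AKT pathways both feed into this response, and FOSL1 and FOSL2 are known as slower and more lasting members than FOS and FOSB.

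Promoter sequence is shown for EGR1, FOS, FOSB and JUNB, 4 of the 6 genes that rose with alpelisib, because CArG boxes and response elements are the sites through which these inputs are known to act. RefSeq promoters (GRCh38.p14) were matched by symbol for 8 of the 10 members, all but FOSL1 and IER3. The 250 bases before each start site were searched on both strands for the CArG box, for the AP-1 site TGANTCA, for the cyclic AMP response element TGACGTCA and its core TGACG, and for the TATA box TATAAA. The core is contained in the full response element. In the following stretches, 5′ to 3′ on the gene's strand, capitals mark CArG boxes, response element cores and TATAAA. Each stretch ends before the first base of the gene in GENCODE v29.
EGR1, chr5:138465329-138465478, plus strand: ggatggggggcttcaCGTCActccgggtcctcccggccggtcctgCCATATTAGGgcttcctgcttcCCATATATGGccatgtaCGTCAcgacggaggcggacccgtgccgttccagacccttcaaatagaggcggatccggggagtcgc
FOS, chr14:75278678-75278773, plus strand: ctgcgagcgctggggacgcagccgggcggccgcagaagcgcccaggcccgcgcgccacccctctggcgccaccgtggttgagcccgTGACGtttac
FOSB, chr19:45467846-45467994, plus strand: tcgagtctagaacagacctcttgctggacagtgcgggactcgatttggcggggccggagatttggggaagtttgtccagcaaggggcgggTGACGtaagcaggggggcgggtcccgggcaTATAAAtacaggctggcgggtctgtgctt
JUNB, chr19:12791336-12791485, plus strand: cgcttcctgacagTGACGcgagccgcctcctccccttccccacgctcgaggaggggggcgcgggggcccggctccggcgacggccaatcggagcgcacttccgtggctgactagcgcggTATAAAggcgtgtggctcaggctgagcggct
The EGR1 stretch held 2 CArG boxes, at -105 to -96 and -83 to -74 from the RefSeq start. No other of the 8 promoters had a match in the 250 bases searched. Bases further upstream were not searched, so these genes may hold CArG boxes there. Of all 35116 RefSeq promoters, 1.16% held a CArG box in the same window. The core TGACG was found in 8 of 8 promoters, against 21.2% of all, and lay at -64 to -60 in FOS and at -60 to -56 in FOSB. TATAAA was found in 3, against 10.7% of all, at -30 to -25 in FOSB, at -31 to -26 in JUNB, and at -33 to -28 in FOS, where it falls beyond the stretch shown. The full element TGACGTCA was found in JUND alone, against 1.65% of all promoters. The AP-1 site in the form TGANTCA was found in 0 of the 8, against 6.57% of all. Other forms of the site were not searched, and the JUN window holds TGACATCA, which that pattern does not match. These matches describe the sequence and do not show that a factor binds there.

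Some libraries went against their labels or stood apart, and this bears on every comparison with LoVo EV. Across genes, log2(TPM + 1) of the libraries labelled LoVo LIN28B correlated with DLD-1 LIN28B at r = 0.983 to 0.984 and with LoVo EV at r = 0.952 to 0.964. The libraries labelled LoVo LIN28B with alpelisib correlated with DLD-1 LIN28B with alpelisib at r = 0.978 to 0.982 and with LoVo EV at r = 0.956 to 0.963. KRT20, a keratin of colon epithelium, went against this likeness, at 4.32 to 4.95 TPM in LoVo-labelled LIN28B, 0.328 to 1.05 TPM in LoVo EV and 111 to 118 TPM in DLD-1 LIN28B. Both groups are therefore called LoVo-labelled here, and whether the 2 labels stand for 2 cell lines in the LIN28B groups cannot be told from these data. The DLD-1 groups and the alpelisib comparison within each label do not use LoVo EV. LIN28B itself measured 3.66 to 4.91 TPM (a length-scaled share of a library) in LoVo EV and 674 to 706 TPM in LoVo-labelled LIN28B. In DLD-1 it measured 1.17 to 2.74 TPM in EV and 408 to 493 TPM in LIN28B. It was lower with alpelisib, at 146 to 160 TPM under the LoVo label and 139 to 150 TPM in DLD-1. Mitochondrial transcripts took 24.0%, 23.1% and 14.5% of the 3 LoVo EV libraries and 7.24% to 15.8% of the others. The 11 markers of colon epithelium summed to 7044 to 8010 TPM in LoVo EV and 9275 to 15430 TPM in the other groups. The 12 markers of other cell types summed to 22.8 to 24.8 TPM in LoVo EV and 5.13 to 14.1 TPM elsewhere. CD68 (7.97 to 15.1 TPM) and COL1A1 (9.19 to 14.3 TPM) were the highest of them in LoVo EV. Elsewhere CD68 reached at most 6.10 TPM and COL1A1 at most 7.31 TPM. COL1A2 was at 0 in all libraries and PTPRC at most 0.12 TPM. Sequencing depth is unknown, since TPM keeps no record of it.

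The 10 genes spanned a wide range of levels. IER3 and JUNB were the most abundant, with medians of 345 and 247 TPM over the 18 libraries. FOSB was the least abundant, with a median of 2.36 TPM. From the lowest to the highest library, FOSB ranged 22.4-fold, FOS 14.0-fold and JUN 11.3-fold, while JUND ranged 1.89-fold. FOS, FOSB, JUN, JUNB, EGR1 and IER2 all had their highest group mean in LoVo-labelled LIN28B with alpelisib. FOSL1 was highest in LoVo EV, and FOSL2 and IER3 in LoVo-labelled LIN28B without the drug. JUND, in contrast, had groups that overlapped their neighbours at every step of the order, from 60.1 TPM in DLD-1 LIN28B with alpelisib to 87.9 TPM in LoVo EV.

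**Figure D1:**
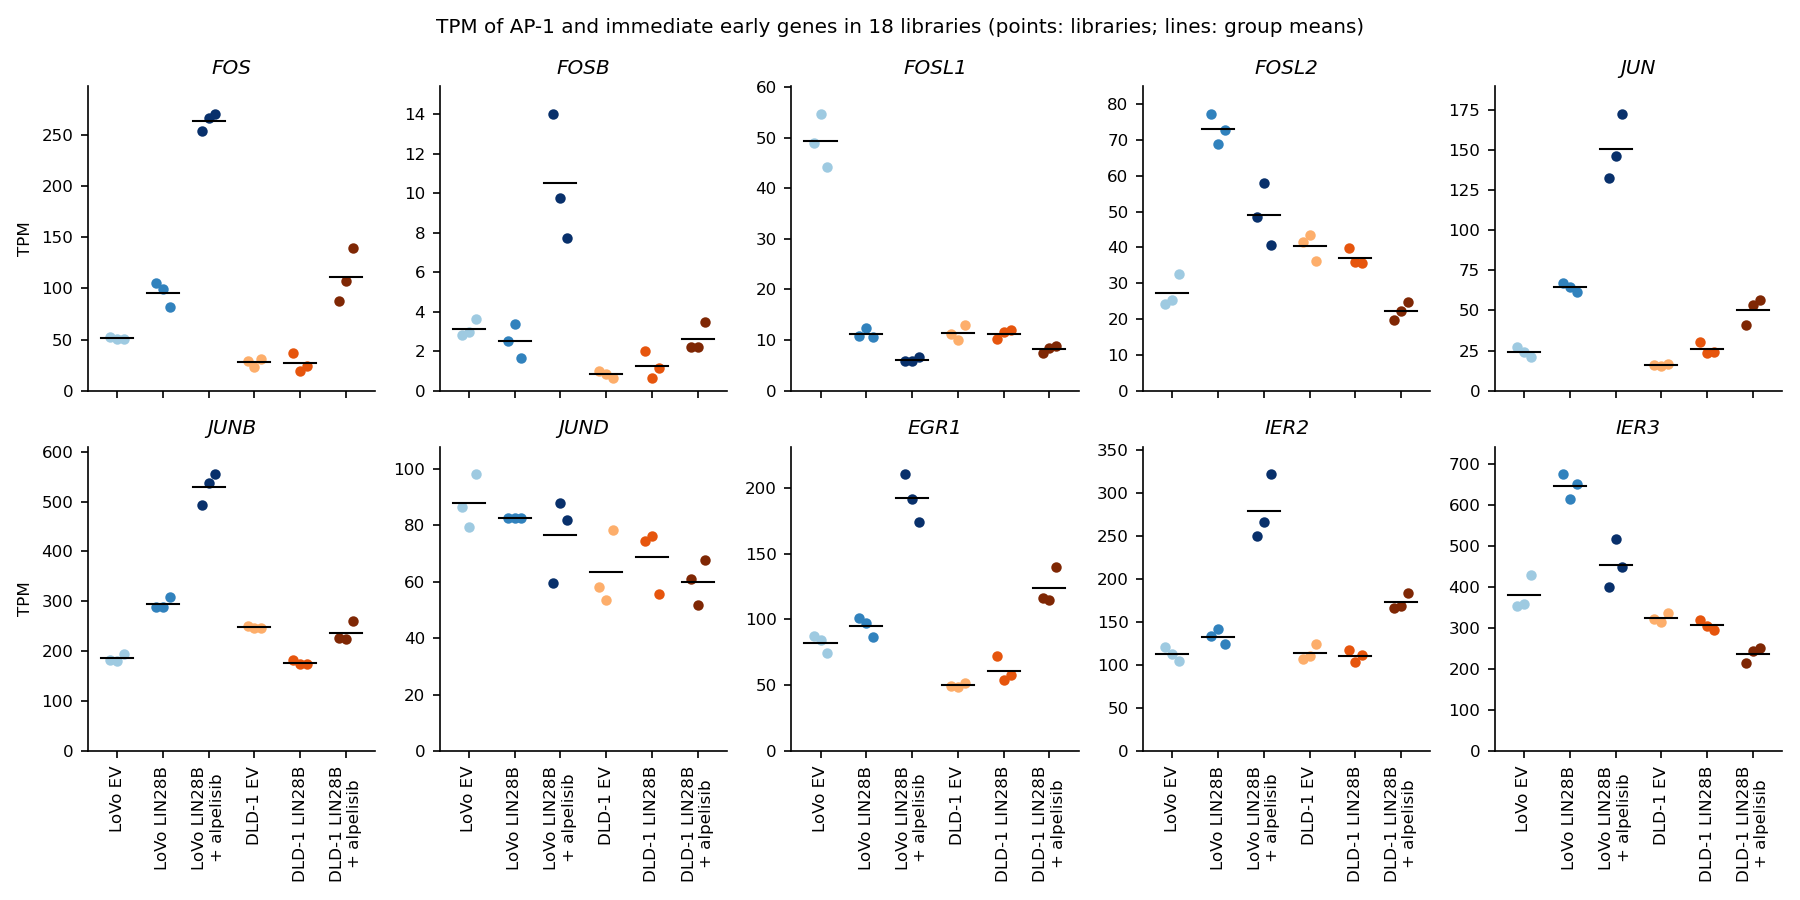
TPM (y axis, from 0, with its own scale in each panel) of the 10 genes in the 6 groups (x axis). Points are libraries and lines are means of 3 libraries. FOS, JUN, JUNB, EGR1 and IER2 stand highest in LoVo-labelled LIN28B with alpelisib, and FOSL1 stands highest in LoVo EV, at 44.2 to 54.7 TPM.

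The panels of TPM by group show that within each label alpelisib moved most of the set, and in opposite directions. In DLD-1 LIN28B cells 6 members rose (FOS, FOSB, JUN, JUNB, EGR1 and IER2), 3 fell (FOSL1, FOSL2 and IER3) and JUND did not pass the test (limma on log2(TPM + 1), adjusted p under 0.05). Over all 18537 genes tested, 9.05% were called higher and 21.9% lower in that comparison. The same 6 rose and the same 3 fell in LoVo-labelled LIN28B cells, where 15.1% of all genes were called higher and 24.6% lower. With the label in doubt, these may not be results from a second cell line. The members' median log2 change was 0.53 in DLD-1 and 0.92 under the LoVo label, beside -0.09 and -0.06 over all genes. In bulk RNA a higher level per cell and a larger share of cells with the transcript cannot be told apart. LIN28B fell in the same libraries, by 1.68 and 2.15 on the log2 scale, and its part in these changes was not tested. Under median-of-ratios scaling, which raised the median of all genes in DLD-1 by 0.10, the 6 that rose kept their call under both labels. The share of calls that were rises went from 29.2% to 47.6% in DLD-1 and from 38.1% to 48.9% under the LoVo label with that scaling.

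FOS (ENSG00000170345, chr14:75278774-75282230, plus strand), given like the positions below in GRCh38 from GENCODE v29, encodes the partner of JUN in the classical AP-1 dimer. Its change was the largest of the 10 in DLD-1. It measured 36.8, 19.4 and 24.2 TPM in DLD-1 LIN28B and 87.4, 108 and 139 TPM with alpelisib. Every treated library was above every untreated one, and the means differed 4.16-fold (log2 change 2.04 ± 0.19 SE, limma adjusted p = 2.57e-06). With the LoVo label FOS measured 105, 99.1 and 81.4 TPM untreated and 254, 266 and 271 TPM treated. These groups were again apart, at 2.77 times the untreated mean (log2 change 1.47 ± 0.19 SE, limma adjusted p = 2.4e-05). The untreated LoVo-labelled libraries thus overlapped the treated DLD-1 libraries in FOS level.

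FOSB (ENSG00000125740, chr19:45467995-45475179, plus strand), a close relative of FOS with the same rapid kinetics, was scarce. It measured 2.00, 0.628 and 1.16 TPM in DLD-1 LIN28B and 2.19, 2.19 and 3.50 TPM with alpelisib. The groups did not overlap, but the highest untreated and the lowest treated library lay close together (log2 change 0.71 ± 0.25 SE, limma adjusted p = 0.0392). This call was lost without a filter on low values (adjusted p = 0.0911), in a limma fit of the compared groups alone (0.0989), and without any of 5 of the 6 libraries (0.053 to 0.175), the exception being DLD-1 LIN28B replicate 1. FOSB under the LoVo label measured 2.52, 3.37 and 1.65 TPM untreated and 14.0, 9.77 and 7.74 TPM treated. Here the groups stood far apart, 4.19-fold in their means (log2 change 1.71 ± 0.25 SE, limma adjusted p = 6.45e-05).

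FOSL1 (ENSG00000175592, chr11:65892049-65900573, minus strand) and FOSL2 (ENSG00000075426, chr2:28392448-28417312, plus strand) encode FRA-1 and FRA-2, FOS proteins without the transactivation domain of FOS. Both fell. FOSL1 measured 10.1, 11.7 and 12.1 TPM in DLD-1 LIN28B and 7.52, 8.44 and 8.86 TPM with alpelisib, 1.36-fold lower (log2 change -0.41 ± 0.12 SE, limma adjusted p = 0.0151). In the LoVo-labelled cells it measured 10.8, 12.4 and 10.7 TPM untreated and 5.87, 5.79 and 6.65 TPM treated, 1.85-fold lower (log2 change -0.79 ± 0.12 SE, limma adjusted p = 7.73e-05). In each case the treated libraries lay below all untreated ones. In DLD-1 the FOSL1 call was lost under median-of-ratios scaling (log2 change -0.27, limma adjusted p = 0.144), without DLD-1 LIN28B replicate 3 (0.0594) and without DLD-1 LIN28B with alpelisib replicate 1 (0.0704).

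FOSL2 measured 39.9, 36.0 and 35.7 TPM in DLD-1 LIN28B and 19.8, 22.3 and 24.8 TPM with alpelisib. The treated mean was 1.67-fold lower (log2 change -0.72 ± 0.13 SE, limma adjusted p = 0.00087). In the LoVo-labelled cells it measured 77.4, 69.0 and 72.8 TPM untreated and 48.5, 58.1 and 40.7 TPM treated, 1.49-fold lower (log2 change -0.58 ± 0.13 SE, limma adjusted p = 0.00252). Treated and untreated libraries did not overlap under either label.

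Among the JUN proteins, which dimerise with every FOS protein, JUN and JUNB rose and JUND did not pass the test. JUN (ENSG00000177606, chr1:58780788-58784327, minus strand) measured 30.4, 23.7 and 24.0 TPM in DLD-1 LIN28B and 41.1, 53.5 and 56.4 TPM with alpelisib, 1.93-fold higher (log2 change 0.92 ± 0.13 SE, limma adjusted p = 0.000147). Its LoVo-labelled libraries measured 66.9, 64.4 and 61.6 TPM untreated and 133, 146 and 172 TPM treated, 2.34-fold higher (log2 change 1.21 ± 0.13 SE, limma adjusted p = 5.08e-06). The lowest treated library was above the highest untreated library in each case. JUNB (ENSG00000171223, chr19:12791496-12793315, plus strand), the most abundant JUN mRNA in every group, measured 182, 174 and 174 TPM in DLD-1 LIN28B and 227, 225 and 260 TPM with alpelisib, 1.34-fold higher (log2 change 0.42 ± 0.07 SE, limma adjusted p = 0.000363). LoVo-labelled JUNB measured 289, 289 and 308 TPM untreated and 494, 538 and 554 TPM treated, 1.79-fold higher (log2 change 0.84 ± 0.07 SE, limma adjusted p = 2.64e-07). JUND (ENSG00000130522, chr19:18279760-18281622, minus strand), the member known for steady expression, measured 74.3, 76.2 and 55.8 TPM in DLD-1 LIN28B and 60.9, 51.7 and 67.6 TPM with alpelisib. Its groups overlapped under both labels, with a log2 change of -0.19 (95% interval -0.54 to 0.16) in DLD-1 and -0.13 (-0.48 to 0.22) under the LoVo label.

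EGR1 (ENSG00000120738, chr5:138465490-138469315, plus strand), a zinc finger transcription factor known as a target of serum response factor, measured 72.1, 54.2 and 57.7 TPM in DLD-1 LIN28B and 116, 114 and 140 TPM with alpelisib. The ratio of means was 2.02 (log2 change 1.01 ± 0.11 SE, limma adjusted p = 1.57e-05). EGR1 under the LoVo label measured 101, 97.1 and 86.6 TPM untreated and 210, 192 and 174 TPM treated, again a ratio of 2.02 (log2 change 1.01 ± 0.11 SE, limma adjusted p = 5.72e-06). No treated library overlapped an untreated one. IER2 (ENSG00000160888, chr19:13150415-13154908, plus strand), which encodes a nuclear protein, measured 118, 104 and 112 TPM in DLD-1 LIN28B and 166, 170 and 184 TPM with alpelisib, 1.56-fold higher (log2 change 0.63 ± 0.10 SE, limma adjusted p = 0.000205). LoVo-labelled IER2 measured 134, 142 and 124 TPM untreated and 250, 266 and 322 TPM treated, 2.10-fold higher (log2 change 1.06 ± 0.10 SE, limma adjusted p = 7.37e-07), and its groups were apart under both labels.

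IER3 (ENSG00000137331, chr6:30743199-30744554, minus strand), a stress-inducible regulator of cell survival, went the other way. It measured 320, 305 and 294 TPM in DLD-1 LIN28B and 216, 245 and 251 TPM with alpelisib, 1.29-fold lower (log2 change -0.37 ± 0.10 SE, limma adjusted p = 0.00791). LoVo-labelled IER3 measured 674, 614 and 649 TPM untreated and 400, 516 and 449 TPM treated, 1.42-fold lower (log2 change -0.51 ± 0.10 SE, limma adjusted p = 0.00053). Again the groups did not overlap. The use of strand in counting was not given in the sources used here, and 359 exon bases of IER3 (26.5% of them) are shared with the antisense gene IER3-AS1. IER3-AS1 measured 3.75, 4.55 and 1.68 TPM in DLD-1 LIN28B and 52.2, 44.9 and 14.9 TPM with alpelisib, the opposite direction to IER3 (limma adjusted p = 0.0129). LoVo-labelled IER3-AS1 measured 3.13, 6.25 and 1.34 TPM untreated and 4.85, 15.8 and 55.2 TPM treated, with overlapping groups (limma adjusted p = 0.0594). JUNB shares 259 exon bases (14.2%) with HOOK2 on the other strand, which measured 133 to 144 TPM in DLD-1 LIN28B and 153 to 173 TPM with alpelisib, and 171 to 192 and 207 to 260 TPM under the LoVo label. HOOK2 was not called in DLD-1 (log2 change 0.23, limma adjusted p = 0.235). Under the LoVo label it was called higher, the same direction as JUNB (log2 change 0.40, limma adjusted p = 0.0349). Of IER2's exon bases, 30.8% overlap the antisense gene AC011446.2, whose highest level in any library was 3.05 TPM. Reads from such partners cannot be told apart without strand, and the part of these overlaps in the changes was not tested.

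**Figure D2:**
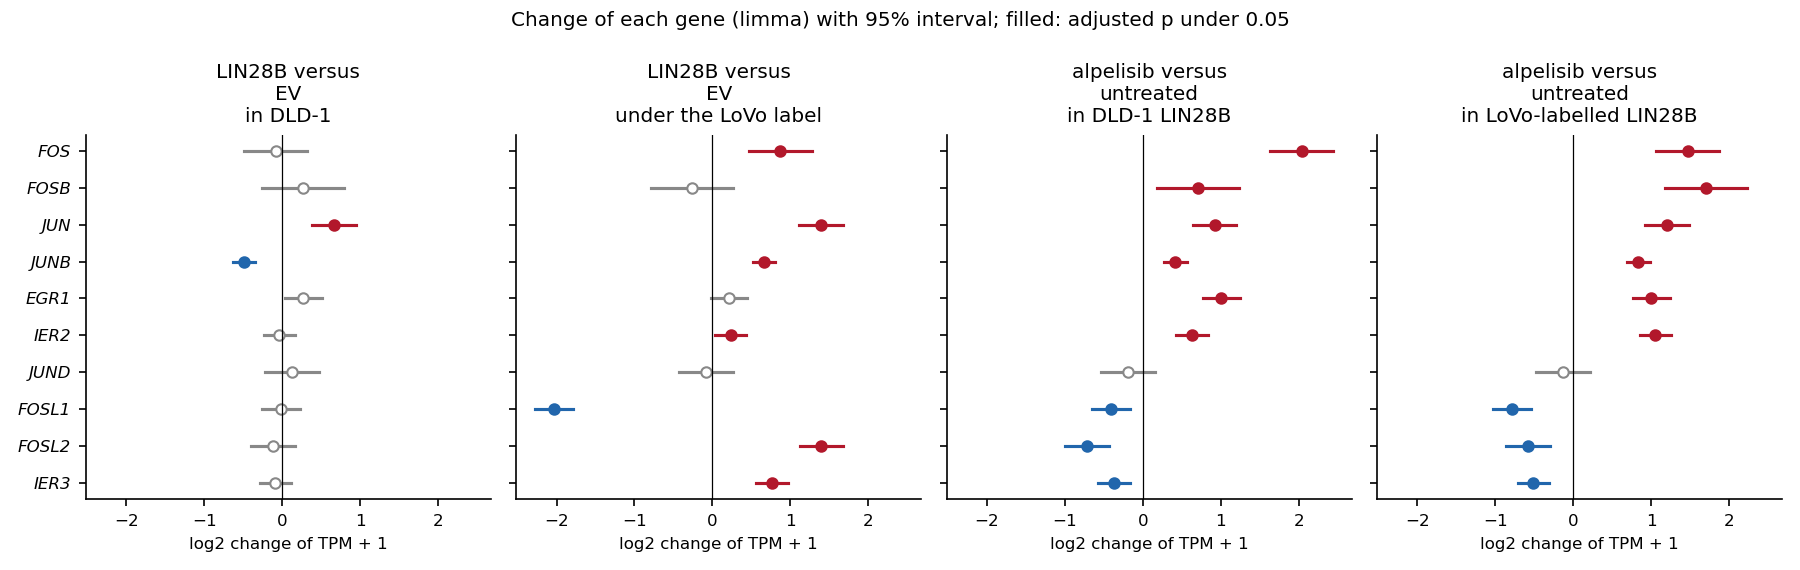
Log2 change of TPM + 1 (x axis) of each gene (y axis) in 4 comparisons, with the 95% interval from limma. Filled points passed an adjusted p of 0.05, in red where higher and in blue where lower, and open grey points did not. With alpelisib 6 filled points lie to the right of 0 and 3 to the left under each label, and JUND is open and left of 0. In LIN28B versus EV in DLD-1 only JUN and JUNB are filled.

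The plot of log2 changes places the alpelisib panels beside those of LIN28B. Whether the drug acted differently under the 2 labels was tested as a difference of the effects. By limma 0 of the 10 members passed, while 5 had an unadjusted p under 0.05, and over all genes 0.637% were called higher and 0.21% lower. Nearest to the threshold was JUNB, with a log2 change under the LoVo label minus that in DLD-1 of 0.42 (95% interval 0.21 to 0.62, limma adjusted p = 0.054). JUNB passed with mitochondrial genes removed (0.39, limma adjusted p = 0.0342), without LoVo-labelled LIN28B with alpelisib replicate 1 (0.0416) and without DLD-1 LIN28B with alpelisib replicate 3 (0.027). The difference was -0.57 (95% interval -1.14 to 0.00) for FOS and 1.00 (0.26 to 1.74) for FOSB, with limma adjusted p of 0.401 and 0.223. For EGR1 the difference was 0.00 (95% interval -0.34 to 0.34). The share of positive differences among all calls was 75.2%, against 60.3% under median-of-ratios scaling and 63.1% with mitochondrial genes removed.

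The make-up of each family differed with the drug. In DLD-1 LIN28B cells FOS made up 34.4% ± 6.48 (SD, n = 3) of the summed FOS family TPM and FOSL2 49.0% ± 4.15. With alpelisib FOS made up 76.8% ± 2.12 and FOSL2 15.6% ± 1.48, while FOSL1 went from 15.1% ± 3.17 to 5.82% ± 0.723. FOSL2 was thus the leading FOS family mRNA without the drug, and FOS with it. Under the LoVo label the FOS share went from 52.2% ± 2.83 to 80.1% ± 2.63, and the FOSL2 share from 40.3% ± 3.17 to 14.9% ± 2.30. In each case the lowest treated FOS share was above the highest untreated one. The summed FOS family was 76.5 ± 11.0 TPM without and 145 ± 30.0 TPM with alpelisib in DLD-1, and 182 ± 14.7 and 330 ± 9.49 TPM under the LoVo label.

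JUNB led the JUN family in all 6 groups, at 62.5% to 75.9% of its summed TPM. The JUN share went within each label from 9.57% ± 0.977 to 14.5% ± 1.87 in DLD-1 and from 14.6% ± 0.844 to 19.9% ± 1.28 under the LoVo label (SD, n = 3). JUND, whose level did not pass the test, went as a share from 25.2% ± 2.96 to 17.3% ± 1.44 and from 18.7% ± 0.382 to 10.1% ± 1.36. LoVo EV was set apart by FOSL1, which held 37.6% ± 3.61 of its FOS family, against 1.85% to 15.1% in the other groups. Such shares are ratios within a library and do not depend on how libraries are scaled, and they were not tested.

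**Figure D3:**
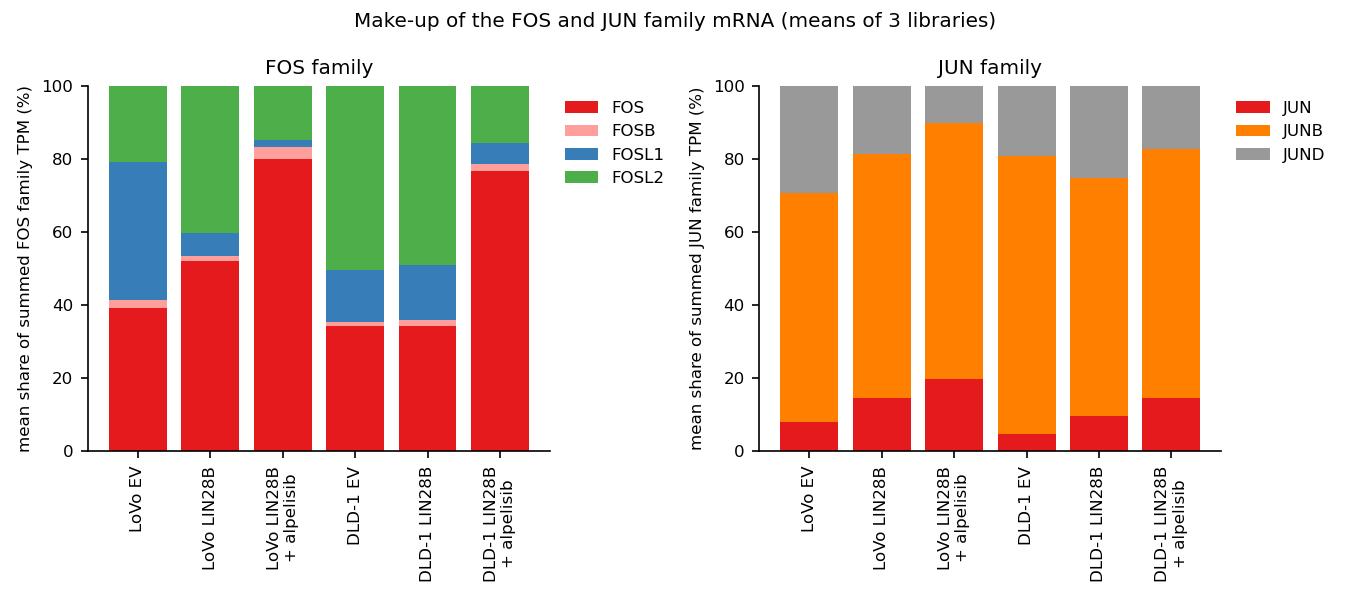
Share of the summed TPM of the FOS family (left) and JUN family (right) held by each gene (y axis, percent) in the 6 groups (x axis). Bars are means of 3 libraries. FOS holds 76.8% and 80.1% of the FOS family in the alpelisib groups and 34.3% to 52.2% in the others, and JUNB is the largest part of the JUN family throughout.

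The bars of family shares set DLD-1 EV beside DLD-1 LIN28B, with FOS at 34.3% and 34.4% of its family. In DLD-1, LIN28B versus EV moved 2 members: JUN rose and JUNB fell, and the other 8 did not pass. Over all genes 1.21% were called higher and 1.32% lower. JUN measured 16.2, 15.2 and 16.3 TPM in EV, below all 3 LIN28B libraries, 1.64-fold (log2 change 0.67 ± 0.13 SE, limma adjusted p = 0.0142). That call was lost in a fit of the compared groups alone (limma adjusted p = 0.0651), without DLD-1 EV replicate 2 (0.0646) and without DLD-1 LIN28B replicate 1 (0.0799), the library with the highest JUN of its group. JUNB measured 250, 247 and 247 TPM in EV, above all 3 LIN28B libraries, 1.40-fold (log2 change -0.49 ± 0.07 SE, limma adjusted p = 0.00142). HOOK2, which overlaps it, measured 150, 195 and 197 TPM in EV and 140, 144 and 133 TPM in LIN28B (limma adjusted p = 0.228). FOS measured 28.7, 23.2 and 31.1 TPM in EV, within the range of the LIN28B libraries (log2 change -0.08, 95% interval -0.49 to 0.32). EGR1 measured 49.5, 48.8 and 52.0 TPM in EV, below the LIN28B libraries (log2 change 0.28, 95% interval 0.04 to 0.51, limma adjusted p = 0.253). FOSL1 was at 11.5 ± 1.51 TPM in EV and 11.3 ± 1.02 in LIN28B, and FOSL2 at 40.5 ± 3.78 and 37.2 ± 2.37 (SD, n = 3).

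Setting LIN28B plus alpelisib against EV in DLD-1 gave 5 higher members and 3 lower, with 9.71% and 20.2% of all genes called in those directions. Both alpelisib comparisons share the treated libraries, so their values are not independent. FOS was 4.03-fold, JUN 3.16-fold, EGR1 2.47-fold, FOSB 3.20-fold and IER2 1.52-fold above EV. FOSL2 was 1.81-fold, FOSL1 1.38-fold and IER3 1.37-fold below EV. JUNB, lower with LIN28B and higher with the drug, was at 237 ± 19.7 TPM beside 248 ± 1.88 TPM in EV (SD, n = 3, log2 change -0.07, 95% interval -0.21 to 0.08). JUN, by contrast, stood above EV in both LIN28B groups. The FOSL1 call was lost under median-of-ratios scaling (limma adjusted p = 0.0824), in a fit of the compared groups alone (0.0512), without DLD-1 EV replicate 3 (0.061) and without the treated replicate 1 (0.0615). The share of rises among all calls was 32.5%, against 45.7% under median-of-ratios scaling.

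Under the LoVo label, LIN28B versus EV gave 6 higher members (FOS, FOSL2, JUN, JUNB, IER2 and IER3) and 1 lower, FOSL1. All genes moved widely in this comparison, with 40.3% called higher and 16.5% lower, and a difference of cell identity cannot be told apart from an effect of LIN28B. Of 10 colon epithelial markers tested 9 were higher and 0 lower (limma, also 9 and 0 at an unadjusted p under 0.05, median log2 change 1.86), and of 4 markers of other cell types 1 was higher and 2 lower. The part of these shifts in the member changes was not tested. FOSL1 measured 49.0, 54.7 and 44.2 TPM in LoVo EV, 4.38-fold above the LoVo-labelled LIN28B libraries (log2 change -2.03 ± 0.12 SE, limma adjusted p = 5.79e-10). The LoVo-labelled level of 11.3 ± 0.977 TPM equalled that of the DLD-1 LIN28B cells to within 1 SD. JUN measured 27.2, 23.9 and 20.9 TPM in LoVo EV, 2.68-fold below the LIN28B libraries (log2 change 1.40 ± 0.13 SE, limma adjusted p = 2.02e-07). FOSL2 measured 24.2, 25.2 and 32.5 TPM in LoVo EV, also 2.68-fold below them. FOS measured 52.2, 50.9 and 50.7 TPM, 1.86-fold below, JUNB 183, 180 and 195 TPM, 1.59-fold below, and IER3 353, 358 and 430 TPM, 1.70-fold below. IER3-AS1 measured 153, 115 and 15.5 TPM in LoVo EV and 1.34 to 6.25 TPM in the LIN28B libraries, and its part in the IER3 value was not tested. IER2 (121, 113 and 106 TPM in EV) passed narrowly (log2 change 0.23, limma adjusted p = 0.0479). The IER2 call was lost with its direction kept in 10 of 14 alternatives. In 1 more, median-of-ratios scaling, which lowered the median of all genes by 0.29, the change turned to -0.13 and was not called (limma adjusted p = 0.35). That scaling also called JUND lower (log2 change -0.45, limma adjusted p = 0.0293), which was at -0.09 and uncalled without it. The share of rises among all calls went from 70.9% to 48.6% with that scaling and to 59.2% with mitochondrial genes removed.

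Comparing the EV groups, 6 members were higher in LoVo (FOS, FOSB, FOSL1, JUN, JUND and EGR1) and 2 lower (FOSL2 and JUNB), where 17.3% of all genes were higher and 38.2% lower. Of the 10 colon epithelial markers tested, 10 were lower in LoVo EV (median log2 difference -1.38), and their part in the member differences was not tested. FOSL1 differed most, 4.31-fold, followed by FOSB, at 2.81, 2.97 and 3.63 TPM in LoVo EV and 0.980, 0.820 and 0.667 TPM in DLD-1 EV. EGR1 measured 87.1, 84.1 and 74.4 TPM in LoVo EV, 1.63-fold above DLD-1 EV. JUND measured 86.3, 79.3 and 97.9 TPM in LoVo EV and 58.1, 53.4 and 78.3 TPM in DLD-1 EV, and its call (limma adjusted p = 0.0201) was lost without LoVo EV replicate 3 (0.0736) or DLD-1 EV replicate 1 (0.0691) or 2 (0.0989). Without LoVo EV replicates 1 and 2, whose mitochondrial share was highest, 1 LoVo EV library remained and 3 calls were lost. The log2 difference went from -0.56 to -0.30 for FOSL2 (limma adjusted p = 0.186), from 0.55 to 0.37 for JUN (0.13) and from 0.48 to 0.64 for JUND (0.0507). The difference of JUND was thus larger without those libraries. IER3 gained a call (0.40, limma adjusted p = 0.0179). Median-of-ratios scaling raised the median of all genes by 0.24. It ended the JUNB call (limma adjusted p = 0.179), turned IER2 from -0.01 to 0.29 (0.0378) and called IER3 higher (4.53e-05). The share of rises among all calls went from 31.2% to 51.4%, and to 41.9% with mitochondrial genes removed.

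The LIN28B groups of the 2 labels differed for 6 members, all higher under the LoVo label, with 7.96% of all genes higher and 6.02% lower. FOS was 3.55-fold, JUN 2.47-fold, IER3 2.11-fold, FOSL2 1.96-fold, JUNB 1.67-fold and EGR1 1.55-fold higher. For these 6 limma adjusted p ran from 7e-07 to 0.000957. The libraries of the 2 groups did not overlap for them. They did not overlap for IER2 and JUND either, which were not called (limma adjusted p = 0.0879 and 0.32), so lack of overlap did not set the 6 apart. FOSL1 differed by a log2 change of 0.00 (95% interval -0.25 to 0.25). The alpelisib libraries under the LoVo label, set against LoVo EV, gave 8 higher members and 1 lower, where 32.2% of all genes were higher and 14.7% lower. JUN was 6.28-fold, FOS 5.15-fold, JUNB 2.84-fold and IER2 2.47-fold above LoVo EV, and FOSL1 8.08-fold below it. The IER3 call in that comparison (log2 change 0.26, limma adjusted p = 0.0369) was lost in 10 of 14 alternatives, among them median-of-ratios scaling (0.01, adjusted p = 0.946), which also called JUND lower (-0.46, limma adjusted p = 0.0301). Of the 10 colon epithelial markers tested, 9 were higher than in LoVo EV and 0 lower by limma, with the same counts at an unadjusted p under 0.05. The share of rises among all calls went from 68.7% to 48.0% with that scaling and to 54.0% with mitochondrial genes removed.

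Other genes of the pathway, taken from lists by function, were called in both directions. Of 37 other immediate early genes tested, 7 rose and 13 fell with alpelisib in DLD-1 (median log2 change -0.08), and 7 rose and 9 fell under the LoVo label (-0.11), against the shares for all genes given above. CCN1, a secreted matrix protein, rose in DLD-1 from 23.4 to 51.5 TPM (log2 change 1.12, limma adjusted p = 2.66e-05), and LoVo-labelled from 23.9 to 75.1 TPM (1.61, 2.96e-07). DUSP2, a phosphatase that inactivates MAP kinases, rose 4.82-fold and 4.30-fold, and KLF6, a zinc finger factor, rose 1.67-fold in DLD-1. ATF3, a stress-induced AP-1 partner that is also an immediate early gene, fell from 27.8 to 4.69 TPM in DLD-1 (log2 change -2.31, limma adjusted p = 4.62e-05). Of the LoVo-labelled calls, the EGF family ligand AREG fell from 94.2 to 45.4 TPM, CSRNP1 2.17-fold, and GADD45A, a growth arrest gene, 2.10-fold.

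Of 17 other bZIP partners, 1 rose and 10 fell in DLD-1, and 2 rose and 7 fell under the LoVo label. Over all genes falls also outnumbered rises, with 21.9% lower and 9.05% higher in DLD-1 and 24.6% lower and 15.1% higher under the LoVo label. The median log2 change of these partners was -0.37 and -0.17, beside -0.09 and -0.06 over all genes. DDIT3, which encodes the stress factor CHOP, fell from 51.8 to 14.9 TPM in DLD-1 (log2 change -1.71, limma adjusted p = 1.34e-05). ATF2, a partner of JUN, fell 1.69-fold under the LoVo label. Among 28 kinases and factors upstream of AP-1, 1 rose and 13 fell in DLD-1, and 1 rose and 11 fell under the LoVo label (median log2 change -0.44 and -0.28). MAP2K1, which encodes the ERK kinase MEK1, fell 1.72-fold under both labels, and MAPK9, which encodes the JUN kinase JNK2, fell 1.76-fold and 1.78-fold.

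The known AP-1 target genes were read against the same shares of all genes, 21.9% and 24.6% lower and 9.05% and 15.1% higher. Of 19 tested, 1 rose and 11 fell in DLD-1 (median log2 change -0.51), and 0 rose and 9 fell under the LoVo label (-0.10), where 1 was higher and 9 were lower by limma at an unadjusted p under 0.05. VEGFA, an angiogenic growth factor, fell in DLD-1 from 226 to 101 TPM (log2 change -1.16, limma adjusted p = 5.36e-06), and LoVo-labelled from 524 to 226 TPM (-1.21, 1.26e-06). PLAU, the urokinase gene, fell 2.03-fold and 2.33-fold, and F3, tissue factor, 2.17-fold and 1.61-fold. Of 17 genes used as a readout of ERK activity, 2 rose and 9 fell under each label. SPRY4, a feedback inhibitor of the pathway, rose 2.40-fold and 4.29-fold, whereas DUSP5, a nuclear ERK phosphatase, fell 2.63-fold and 2.51-fold, and PHLDA1 1.98-fold and 2.32-fold. Of 10 colon epithelial markers tested 5 rose and 2 fell under each label, and of 4 markers of other cell types 0 rose and 2 fell in DLD-1 (limma, 0 higher and 2 lower at an unadjusted p under 0.05) and 1 fell under the LoVo label. Mitochondrial transcripts took 10.6% to 15.8% of the treated DLD-1 libraries and 10.3% to 11.1% of the untreated ones, and the part of these shifts in the counts was not tested.

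**Figure D4:**
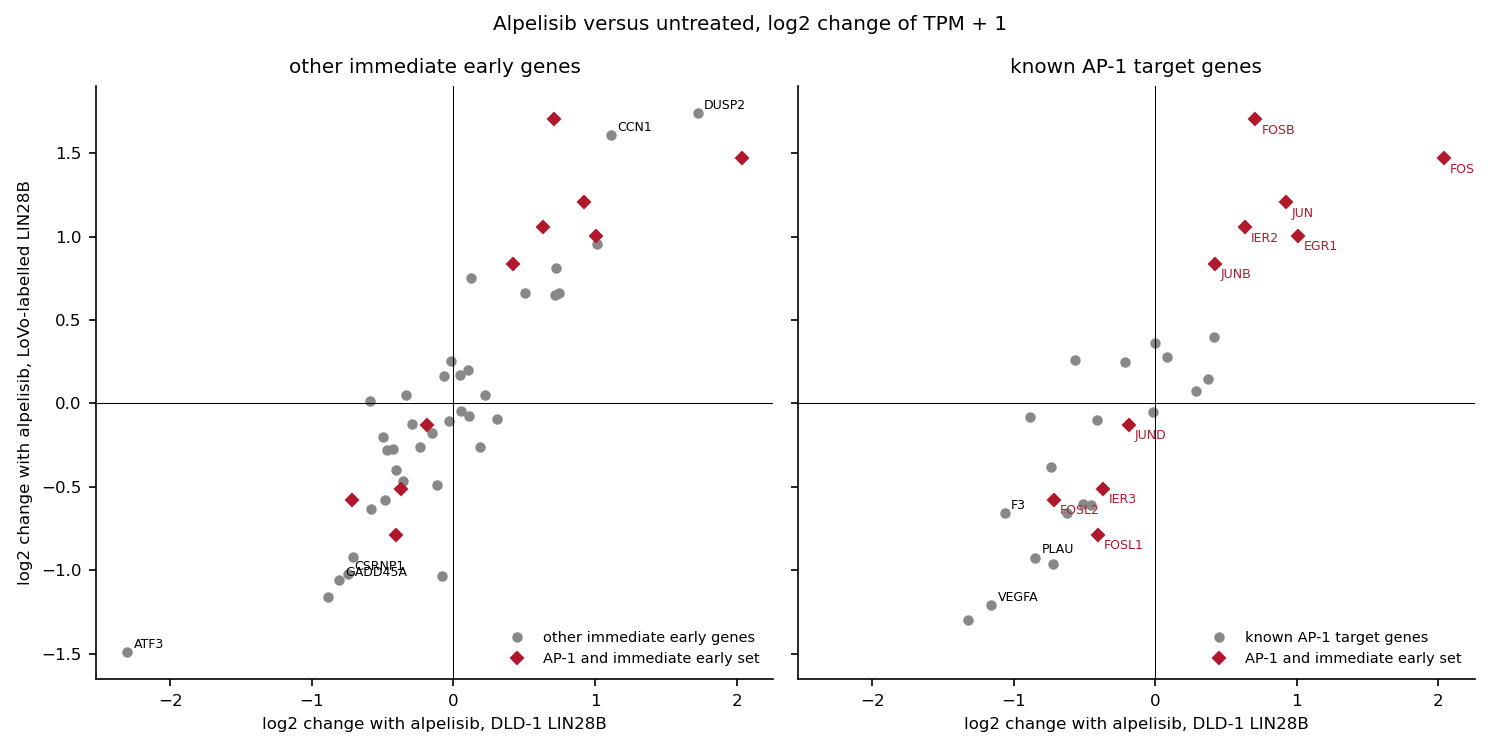
Log2 change with alpelisib in DLD-1 LIN28B (x axis) and LoVo-labelled LIN28B (y axis). Grey points are other immediate early genes (left) and known AP-1 target genes (right), with 8 genes described in the text that were called under both labels named, and red diamonds are the 10 AP-1 and immediate early genes. FOS, FOSB, JUN, JUNB, EGR1 and IER2 lie in the upper right, FOSL1, FOSL2 and IER3 in the lower left, and VEGFA lies at -1.16 and -1.21.

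The scatter of alpelisib changes shows the called target genes of the lower left beside FOSL1, FOSL2 and IER3. The same lists were read for LIN28B versus EV in DLD-1, where 1.21% of all genes were called higher and 1.32% lower. Of the known AP-1 targets 0 rose and 5 fell by limma, with 0 and 9 at an unadjusted p under 0.05. Among those that fell were MMP14, a membrane-bound matrix protease, from 12.3 to 5.01 TPM (log2 change -1.15, limma adjusted p = 0.000862), and F3 and TIMP1 by 1.49-fold and 1.32-fold. Among the other immediate early genes 2 rose and 0 fell, with 6 and 3 at an unadjusted p under 0.05. ATF3 rose from 8.57 to 27.8 TPM (log2 change 1.55, limma adjusted p = 0.00999) and CCN1 from 14.4 to 23.4 TPM. Of the bZIP partners DDIT3 rose 1.87-fold. The upstream kinases and factors gave 0 calls in limma, with 2 higher and 2 lower at an unadjusted p under 0.05, and of the ERK readout genes SPRY4 alone fell, 1.34-fold. ATF3 and DDIT3 thus rose with LIN28B and fell with the drug. Those comparisons share the DLD-1 LIN28B libraries. Of 10 colon epithelial markers tested 1 rose and 3 fell with LIN28B in DLD-1. Of 4 markers of other cell types 0 rose and 1 fell. The part of these marker shifts in the member changes was not tested.

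The genes whose log2(TPM + 1) profile over the 18 libraries was most like that of a member were read as a description, since the libraries share groups and treatments. FOS was closest to CEACAM6, a cell adhesion gene of colon epithelium (Pearson r = 0.946), followed by LY6G6D (0.935). EGR1 was closest to CCN1 (0.938) and AMH (0.935), and then to DUSP1 (0.930), an immediate early phosphatase. JUN was closest to PI3 (0.954), JUNB to SDCBP2 (0.972), IER2 to LINC01135 (0.969) and FOSB to SYNE2 (0.945). FOSL2 was closest to HK1 (0.982), the hexokinase gene, IER3 to VSNL1 (0.955), and FOSL1 to MAGEB17 (0.978) and NOTCH1 (0.977).

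Deviations from the group mean were compared among replicates. With group means removed, FOS correlated over the 18 libraries with EGR1 at r = 0.769 and with JUN at 0.730, JUN with IER2 at 0.752, and FOSL2 with IER3 at 0.689. These were among the highest of the member pairs. FOS and FOSL1 correlated at 0.161, FOSB and JUN at 0.11, and FOSB and IER2 at -0.004. Others were negative, with FOSL2 and IER2 at -0.471 and FOSL1 and FOSL2 at -0.554. Pairs of other genes were not compared, and the part of library-wide shifts in these values was not tested. DLD-1 LIN28B replicate 1 was the highest of its group for 8 of the 10 members, all but FOSL1 and JUND. In DLD-1 LIN28B with alpelisib, replicate 3 was the highest for all 10, and in DLD-1 EV replicate 3 for 7. Mitochondrial transcripts took 10.6% of that treated library, beside 15.8% and 14.8% of treated replicates 1 and 2. In DLD-1 EV they took 11.8% of replicate 3, beside 9.23% and 10.2% of replicates 1 and 2. Such counts were not made over all genes, and the part of library-wide shifts in them was not tested. Under the LoVo label no library was the highest of its group for more than 5 members.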

How the data were processed

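Poly(A) RNA-seq of 18 libraries was deposited, per the file headers, as 1 table of TPM for 61806 gene identifiers. Tools listed in the submitters' processing notes, with no role, are STAR 2.7.10, Picard, HTSeq and DESeq2, with the build hg38. The sources used here give neither the gene lengths nor the annotation or strand use behind the deposited TPM. Because TPM sums to a fixed total, abundant transcripts that change shift all others, and it keeps no depth, so no count model or counting interval was used.

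Genes with at least 1 TPM in at least 3 libraries were kept (18537, with all 10 members among them), and log2(TPM + 1) was fitted with limma 3.58.1 in R 4.3.3 as 6 group means over all libraries (eBayes with a mean-variance trend). The log scale understates changes of low genes, and folds are ratios of mean TPM. Two-sided p-values were adjusted by Benjamini-Hochberg over all genes tested, with calls made under 0.05. The fit was tested on simulated data. Groups and replicate numbers came from the sample titles. The members and the lists (other immediate early genes, other bZIP partners, kinases and factors upstream of AP-1, known AP-1 targets, ERK output genes, colon epithelial markers and markers of other cell types) were chosen with earlier results of these data known. The members were named by rule, with up to 4 genes of a list by smallest p and up to 3 genes by highest correlation. That correlation ranking left out the members and genes with clone names. Gene positions and overlaps came from GENCODE v29 and promoters from RefSeq. Alternatives were another pseudocount, no filter, median-of-ratios scaling, removal of mitochondrial genes, a fit of the compared groups alone, a replicate block, no trend, and leaving out each library.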

Additional observations from a re-analysis of the deposited data

Results flagged for a closer look

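For 6 genes the effect of LIN28B differed between the LoVo label and DLD-1 by a limma test of the difference itself, given here as the log2 change under the LoVo label minus that in DLD-1. Among the members 5 differences were higher and 1 lower, where 30.4% of all genes were called higher and 12.4% lower. The largest was FOSL1, at -2.02 (limma adjusted p = 1.12e-07), with a log2 change of -2.03 under the LoVo label and -0.02 in DLD-1. FOSL2 followed at 1.51 (8.91e-06), JUNB at 1.15 (1.48e-07), FOS at 0.96 (0.00894), IER3 at 0.85 (9.48e-05) and JUN at 0.73 (0.00502). JUNB rose under the LoVo label and fell in DLD-1, with no overlap of groups in either. These differences rest on the LoVo EV libraries, from which the LoVo-labelled LIN28B libraries differ across much of the genome, and a difference of cell identity cannot be told apart from an effect of LIN28B. FOS was no longer called under median-of-ratios scaling (0.63, limma adjusted p = 0.0666) or without LoVo EV replicates 1 and 2 (0.97, 0.0543), and JUN was not called under median-of-ratios scaling (0.41, 0.121). The share of positive differences among all calls went from 71.0% to 49.1% with that scaling, which moved the median of all genes by -0.26. With mitochondrial genes removed it was 58.2%.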

How the results depend on the processing

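Of 1460 member values recomputed under an alternative, 1401 kept their direction and their side of the threshold (or were uncalled in both), 47 lost their call, 10 gained one and 2 turned. Both that turned were IER2 under median-of-ratios scaling, to -0.13 for LIN28B versus EV under the LoVo label and to 0.29 for LoVo EV versus DLD-1 EV. The members called in LIN28B versus EV in DLD-1 went from 2 to 1 in a fit of the compared groups alone, and lay between 1 and 2 when each library was left out. For the difference of the alpelisib effect the count went from 0 to 1 with mitochondrial genes removed, and lay between 0 and 1 when each library was left out; the 1 was JUNB, called without LoVo-labelled LIN28B with alpelisib replicate 1 or its DLD-1 counterpart replicate 3. Over all genes, LIN28B versus EV in DLD-1 gave 469 calls, and from 183 to 624 over 13 alternatives. It gave 290 without the filter, 183 in the fit of the compared groups and 185 to 229 without a DLD-1 EV or DLD-1 LIN28B library. The count was larger under median-of-ratios scaling (241 higher and 383 lower) and with mitochondrial genes removed (304 and 283). The difference of the alpelisib effect gave 157 calls, 262 under median-of-ratios scaling and as few as 82 without a library. LoVo EV versus DLD-1 EV gave 10294 calls and 6696 without LoVo EV replicates 1 and 2, an alternative chosen after seeing the data, in which the lone library is assumed to vary like the other groups. Replicate numbers were not treated as pairs, since no pair of groups had all same-number correlations above 0.1. That check could miss weak or partial pairing. A replicate block ended 1 member call, IER2 for LIN28B versus EV under the LoVo label (0.23, limma adjusted p = 0.0619), and changed no other. Depth is unknown, so what it limits cannot be stated.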
